A study of Mus musculus with 8 samples.

Results

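The 43 genes described here carry out or answer to the supply of amino acids for protein synthesis: 20 encode subunits of the cytosolic aminoacyl-tRNA synthetases, 17 encode the transcription factor ATF4 or proteins whose genes it is known to control, and 6 encode amino acid transporters. They were found by symbol among the 25230 gene symbols of the count table, each under its listed name. The set was chosen by the known function of its genes with the fold changes of exendin-4 against PBS in these same libraries already known. Those fold changes are therefore given as a description, and every adjusted p comes from the fit over all 14691 genes tested. All 43 were tested.

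The cells were intraepithelial lymphocytes (IELs), the T cells lodged among the epithelial cells of the gut, from 8 C57BL/6J mice. Every mouse was injected intraperitoneally with 35 µg of an antibody to CD3, the signalling part of the T cell receptor, so the controls carry that stimulus too. The 4 mice of the PBS group received PBS with it, and the 4 mice of the Ex4 group received exendin-4 at 10 nmol/kg, a peptide agonist of the GLP-1 receptor. After 3 hours the gut cells were separated on Percoll and sorted for CD45, a protein of all leukocytes. The sources used here do not state the age or sex of the mice.

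Total counts ran from 18266449 to 25333644 in the PBS libraries and from 13386889 to 31843413 in the Ex4 libraries, and Ex4 4 was the shallowest. The T cell genes Cd3d, Cd3e, Cd3g and Cd8a and the IEL integrin gene Itgae were each above 200 CPM (counts scaled to a common library size) in every library. So was Ptprc, the gene of CD45, which is not particular to T cells. Markers of other cells were present as well, and no marker was at 0 in any library. The summed level of 17 epithelial markers ran from 770.9 to 1601 CPM with PBS and from 529 to 1509 CPM with Ex4. That of 9 B and plasma cell markers ran from 858 to 1483 and from 268 to 2248 CPM. In bulk RNA, fewer cells of a type and less RNA per cell cannot be told apart.

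Aminoacyl-tRNA synthetases attach each amino acid to its tRNA and so feed the ribosome. When uncharged tRNA builds up, the kinase GCN2 phosphorylates the initiation factor eIF2, general translation slows, and the mRNA of ATF4 is translated more. ATF4 then raises transcription of synthetases, amino acid transporters and enzymes of asparagine, serine, glycine and proline synthesis, together with regulators such as CHOP (Ddit3) and TRIB3. Stimulated T cells take up large amounts of amino acids and use this programme during growth. Since ATF4 is set largely by translation, its mRNA level is not a measure of its activity.

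The synthetases had lower mean levels with exendin-4 in nearly every case, the mean of Atf4 itself was almost equal in both groups, and the transporters were divided in direction. Of the 20 synthetases 19 had a log2 fold change below 0, with a median of -0.29, where 47.1% of all genes tested lay below 0 and their median was 0.02. Of ATF4 and its targets 12 of 17 lay below 0 (median -0.24), and of the transporters 3 of 6 (median 0.01). None of the 43 genes passed the threshold of 0.05 in the edgeR quasi-likelihood test (Benjamini-Hochberg, lowest adjusted p = 0.31), a threshold that 0.0136% of all genes passed. At an unadjusted p under 0.05 there were 10 synthetases, 1 gene of the ATF4 group and 1 transporter, all of them lower, against 3.90% of all genes lower and 3.71% higher. limma-voom called 0 of them. DESeq2 gave an adjusted p for 35 of them and called 2, Cars (adjusted p = 0.0235) and Iars (adjusted p = 0.0213), both lower, and it called 0.377% of all genes with an adjusted p as lower. The plot of fold changes sets the 3 groups side by side.

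**Figure D1:**
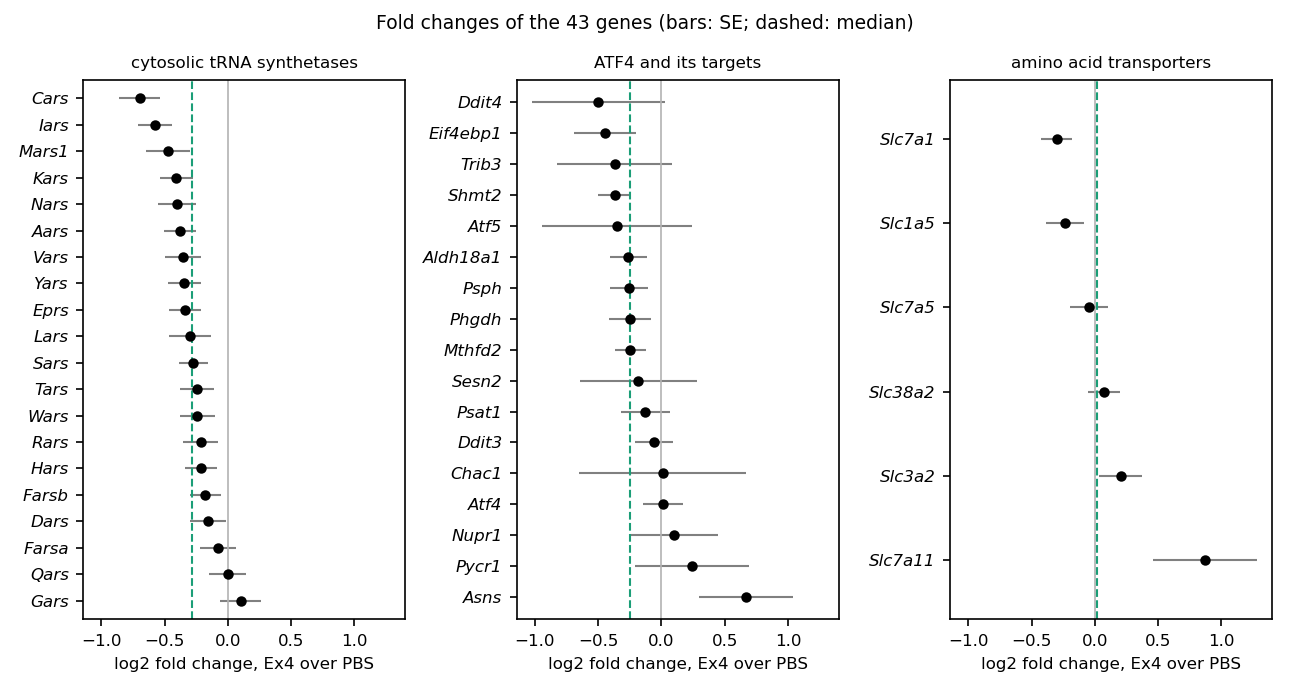
Log2 fold change of exendin-4 over PBS for each of the 43 genes (points, with bars of 1 SE from the edgeR fit), by gene group; the grey line marks 0 and the dashed line the median of the group. The synthetases lie to the left of 0 apart from Gars and Qars, while Asns (0.67) and Slc7a11 (0.87) lie farthest to the right and have wide bars.

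The promoters of these genes were searched for the core of the C/EBP-ATF response element, the sequence that ATF4 binds with C/EBP partners. Of the 43 members 33 had an entry in the RefSeq promoter table (build GRCm38.p6, the assembly also called mm10), which covers 250 bases before to 50 bases after a gene's listed start. For some members, Yars and Slc7a11 among them, that start lies inside the full extent of the gene. The letters TGATGNAA, on either strand, stood in a window of 11 of those 33 genes (33.3%), against 4.51% of all 27025 genes in the table. By window, of the same length throughout, the shares were 30.6% of 36 and 3.97% of 32851. The 11 were 5 synthetases, 5 genes of the ATF4 group and 1 transporter. Their fold changes went both ways: 5 of 11 lay below 0 (median 0.01), against 19 of 22 members whose windows lacked those letters (median -0.25). Of the 10 members without an entry 10 lay below 0 (median -0.27). Among the 11, Aars, Iars, Tars and Yars lay below 0, as did Trib3. Chac1, Nupr1, Pycr1 and Slc7a11, above 0, were scarce, with SEs from 0.35 to 0.66, and Asns and Gars also lay above 0. The difference between these sets was not tested. The full CREB site TGACGTCA stood in 0 of the 36 member windows and in 1.79% of all windows. The search describes letters only, and binding was not measured.

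These 30-base stretches are shown because they carry matches. Each is read 5′ to 3′ in the direction of its gene, with the matched letters in capitals and the strand of the gene given. The first 3 genes are synthetases with lower means in Ex4, Gars is the synthetase with a higher mean, and the others belong to the ATF4 group.
Iars, chr13:49682126-49682155, plus strand: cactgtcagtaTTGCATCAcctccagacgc
Yars, chr4:129189895-129189924, plus strand: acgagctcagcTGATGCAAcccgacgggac
Tars, chr15:11399655-11399684, minus strand: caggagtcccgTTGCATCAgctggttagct
Gars, chr6:55037960-55037989, plus strand: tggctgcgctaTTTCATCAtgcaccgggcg
Trib3, chr2:152344028-152344057, minus strand: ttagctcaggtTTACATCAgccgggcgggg
Chac1, chr2:119351038-119351067, plus strand: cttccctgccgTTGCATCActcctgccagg
Nupr1, chr7:126625562-126625591, minus strand: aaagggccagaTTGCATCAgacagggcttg
Pycr1, chr11:120643833-120643862, minus strand: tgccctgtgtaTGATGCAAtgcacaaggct

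Asns and Slc7a11, the members of the whole set with the highest fold changes, are shown with the 250 bases before their listed start. Asns has a single match close to the start. Slc7a11 has a match on each strand, close together. Both are read as above.
Asns, chr6:7693210-7693459, minus strand: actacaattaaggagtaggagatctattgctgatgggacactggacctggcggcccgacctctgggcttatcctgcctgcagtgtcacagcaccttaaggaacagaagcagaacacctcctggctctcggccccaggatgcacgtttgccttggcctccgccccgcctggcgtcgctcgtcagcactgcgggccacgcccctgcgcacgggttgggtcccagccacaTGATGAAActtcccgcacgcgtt
Slc7a11, chr3:50443614-50443863, minus strand: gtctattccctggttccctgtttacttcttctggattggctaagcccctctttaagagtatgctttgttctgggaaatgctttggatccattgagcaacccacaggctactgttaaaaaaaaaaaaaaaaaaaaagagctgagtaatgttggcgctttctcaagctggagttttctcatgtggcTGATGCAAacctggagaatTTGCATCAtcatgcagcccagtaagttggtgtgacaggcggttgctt

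Among the synthetases, Cars, which charges cysteine tRNA, had the largest difference. It was at 46.6, 65.1, 53.6 and 48.6 CPM in PBS 1 to 4 and at 32.1, 41.2, 30.8 and 27.6 CPM in Ex4 1 to 4. Every Ex4 library lay below every PBS library, and the Ex4 mean was 0.616 of the PBS mean (log2 fold change -0.70, SE 0.16, edgeR adjusted p = 0.31). The gene lies on chromosome 7 from 143557230 to 143600090. Iars, the isoleucine enzyme, was at 125.8, 112.2, 89.5 and 104.5 CPM with PBS and at 79.1, 71.8, 74.5 and 64.7 CPM with Ex4. Again the groups did not touch, and the mean ratio was 0.672 (log2 fold change -0.57, SE 0.13, edgeR adjusted p = 0.31). Iars lies on chromosome 13 from 49682130 to 49734267.

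Kars makes lysyl-tRNA for both the cytosol and the mitochondria. Its level was 311.9, 282.1, 231.4 and 297.5 CPM in PBS 1 to 4 and 212.9, 220.3, 221.3 and 192.4 CPM in Ex4 1 to 4. PBS 3 was the lowest PBS library and still lay above all Ex4 libraries, with a log2 fold change of -0.41 (SE 0.13). Aars, the alanine enzyme, was at 124.9, 141.8, 107.7 and 135.9 CPM with PBS and 103.3, 94.1, 100.4 and 95.1 CPM with Ex4. Its groups were apart by a narrow gap at PBS 3, and its log2 fold change was -0.38 (SE 0.12). The Aars gene overlaps Ddx19b over 3974 bases, and Ddx19b, at a mean of 20.8 CPM with PBS and 26.0 CPM with Ex4, had its higher mean in the other group. Counting by strand is not given in the sources used here, so reads in the overlap could have been given to either gene.

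Nars, which charges asparagine tRNA, was at 324.7, 294.4, 289.2 and 292.0 CPM with PBS and 239.9, 229.0, 271.5 and 166.8 CPM with Ex4. All Ex4 libraries lay below the PBS libraries, Ex4 4 by far the most (log2 fold change -0.40, SE 0.15, and -0.295 without Ex4 4). Mars1, the methionine enzyme that also serves translation initiation, was at 84.9, 74.0, 65.6 and 56.5 CPM with PBS and 53.1, 60.3, 53.3 and 35.2 CPM with Ex4. Here the groups overlapped, since Ex4 2 lay above PBS 4 (log2 fold change -0.48, SE 0.17). The last 71 bases of Mars1 overlap the end of Ddit3, a member of the ATF4 group.

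Of the remaining synthetases, 4 more had every Ex4 library below every PBS library. Eprs, a fused enzyme for glutamate and proline, had means of 425.0 ± 39.7 and 335.9 ± 23.5 CPM in PBS and Ex4 (SD, n = 4 in each group here and below). Vars (valine) was at 120.3 ± 10.8 and 94.2 ± 15.5 CPM, with its lowest PBS value of 110.1 CPM next to its highest Ex4 value of 109.4 CPM. Yars (tyrosine) was at 112.1 ± 8.87 and 88.2 ± 11.4 CPM. Sars, the serine enzyme, had the tightest PBS group, at 94.8 ± 2.35 against 78.5 ± 6.34 CPM. In all, 9 of 20 synthetases were apart in this direction (Aars, Cars, Eprs, Iars, Kars, Nars, Sars, Vars and Yars) and 0 in the other, where 2.66% of all genes tested were apart downward and 2.29% upward.

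The other synthetases had overlapping groups. Lars (leucine) was at 100.8 ± 7.33 and 81.9 ± 19.0 CPM, and Ex4 4 alone, at 54.6 CPM, stood well below the other Ex4 libraries, which ran from 83.4 to 96.3 CPM. Tars (threonine) was at 237.6 ± 14.6 and 200.7 ± 29.0 CPM, Wars (tryptophan) at 88.4 ± 8.64 and 74.8 ± 9.82 CPM, and Rars (arginine) at 168.5 ± 14.5 and 144.9 ± 23.7 CPM. Hars (histidine) was at 117.3 ± 9.36 and 101.2 ± 12.7 CPM. The log2 fold changes of these 4 genes were -0.24, -0.24, -0.22 and -0.21, each with Ex4 4 as its lowest library. Farsa and Farsb, the subunits of the phenylalanine enzyme, had log2 fold changes of -0.08 and -0.18, and Dars (aspartate) had -0.16. Farsb overlaps Sgpp2, which was at about 3 CPM in both groups. Qars (glutamine), with a log2 fold change of -0.002 whose sign depended on the scaling, was at 80.2 ± 15.8 and 80.1 ± 7.28 CPM, with PBS 2 at 103.8 CPM against 70.5 to 73.9 CPM in the other PBS libraries. Gars, which like Kars serves both cytosol and mitochondria, was the only synthetase with a log2 fold change above 0 (0.10, SE 0.16, and -0.03 without Ex4 1).

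**Figure D2:**
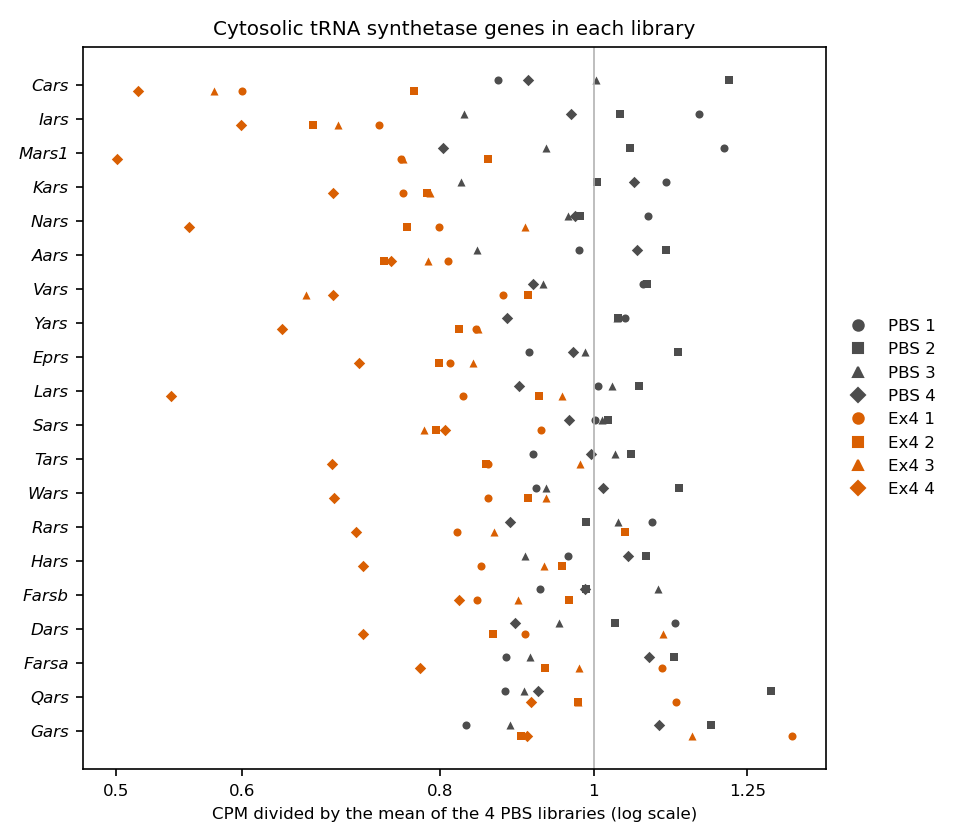
Level of each synthetase gene in each of the 8 libraries as CPM divided by the PBS mean of that gene (log axis); grey symbols are PBS and orange symbols Ex4 libraries, and symbol shape gives the replicate. Orange symbols lie left of the grey ones in 9 of 20 genes, and the orange diamond of Ex4 4 is the leftmost symbol in 15.

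The synthetases were also low or high together within a library. Ex4 4 held the lowest value of the 8 libraries for 15 of the 20 genes, and PBS 2 held the highest for 11 and PBS 1 for 7. Among 17 mitochondrial synthetases Ex4 4 held the lowest value for 4, PBS 2 the highest for 8 and PBS 1 the highest for 2. The same shares over all genes were not computed, so whether this is particular to the synthetases was not tested. The summed level of the 20 was 2865, 3048, 2713 and 2780 CPM in PBS 1 to 4 and 2433, 2409, 2490 and 1963 CPM in Ex4 1 to 4. That is 2851 ± 145 CPM against 2324 ± 243 CPM, or 18.5% less, and the groups did not overlap. Ex4 1, 2 and 3 lay close to each other and Ex4 4 apart from them. Without Ex4 4 the median log2 fold change of the synthetases was -0.22 and 18 of 20 lay below 0. It ran from -0.35 to -0.22 over all omissions of a single library, and it was -0.29 with PBS 2 and Ex4 3 both left out, the libraries with the fewest genes detected at matched depth.

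The labels number the mice from 3 to 19 without saying what the numbers stand for, and Ex4 3, number 11, falls in neither of their short runs. Among numbers 3 to 6, with 2 PBS and 2 Ex4 libraries, 18 of 20 synthetases were lower in Ex4 and the median log2 difference was -0.26. Among numbers 17 to 19, with 2 PBS libraries and 1 Ex4 library, Ex4 4, it was -0.45 and 20 of 20 were lower. Over all genes tested the median difference was 0.03 in each run. The ATF4 group had medians of -0.10 and -0.18 in the same runs.

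Marker levels of other cell types varied between libraries. Summed B and plasma cell markers were at 1483, 946, 945 and 858 CPM in PBS 1 to 4. In Ex4 1 to 4 they were at 268, 820, 2248 and 388 CPM, so only Ex4 3 was not below every PBS library. The mean synthetase level on the log2 CPM scale was 6.92, 7.03, 6.85 and 6.87 in PBS 1 to 4. In Ex4 1 to 4 that mean was 6.71, 6.70, 6.71 and 6.38. Epithelial markers summed to 771 CPM in PBS 1 and 1601 CPM in PBS 3, where the synthetase means were 6.92 and 6.85. The sum does not rank every marker alike. PBS 1 held the lowest value of the 8 libraries for 6 of the 17 markers and the highest for 4, Epcam (183.9 CPM) and Cdh1 (56.1 CPM) among the latter. Of the 17 epithelial markers 14 had a log2 fold change below 0 (median -0.62), and Epcam, at 161.0 ± 16.4 and 125.6 ± 19.9 CPM, had all Ex4 libraries below PBS. With the mean of those markers as a covariate the synthetase median was -0.28 and 20 of 20 lay below 0. Of the 9 B and plasma cell markers 8 lay below 0 (median -0.15). Their sums overlapped between the groups through Ex4 3 alone, and their part in the synthetase difference was not tested. Of the 8 myeloid markers 3 lay below 0 (median 0.28). Of the 10 IEL and T cell markers, Ptprc counted among them, 4 did (median 0.03). These were Cd8a, Cd160 (-0.42, SE 0.24), Cd7 (-0.19, SE 0.18) and Itgae (-0.10, SE 0.20). Among these Cd8a had all Ex4 libraries below PBS (log2 fold change -0.59, edgeR adjusted p = 0.351). Ptprc, Cd3d, Cd3e, Cd3g, Gzma and Gzmb ran from 0.01 to 0.21. A difference in the share of IELs was not tested.

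Synthetases of both catalytic classes had lower means. Class I enzymes, built on a Rossmann fold, had 10 of 10 genes below 0 (median -0.34), with Eprs counted among them and Qars at -0.002, where other scaling put it above 0. Class II enzymes, with an antiparallel fold, had 9 of 10 (median -0.23). Of the 8 enzymes that sit in the multi-synthetase complex 8 lay below 0 (median -0.32), and of the 12 outside it 11 did (median -0.26). Its scaffold genes Aimp1 and Aimp2 had -0.23 and -0.20. The difference between classes was not tested. In CPM per kilobase of all annotated exons merged, Nars (68.9), Kars (62.9), Rars (52.2) and Hars (47.9) had the highest PBS values and Cars the lowest (8.12). Merged exons can be longer than any one transcript, so these ranks depend on the annotation. Eprs, the highest by PBS CPM (425.0), was at 23.5 over 18.1 kb of merged exons. The lowest fold change of the 20 thus belonged to the gene with the lowest PBS value per kilobase.

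The mitochondrial synthetases, encoded by separate nuclear genes, served as the nearest gene family. Of 17 genes 10 lay below 0, with a median of -0.09, and 2 had all Ex4 libraries below PBS. These were Nars2, at 31.9 CPM with PBS and 24.4 CPM with Ex4 (log2 fold change -0.39), and Pars2 (-0.52). None passed (edgeR, lowest adjusted p = 0.566). Whether both families differ in their response was not tested. Lars2, chosen after its values were seen, stood at 1714 CPM in PBS 4 and 1460 CPM in Ex4 4 and between 648 and 936 CPM in the other 6 libraries.

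**Figure D3:**
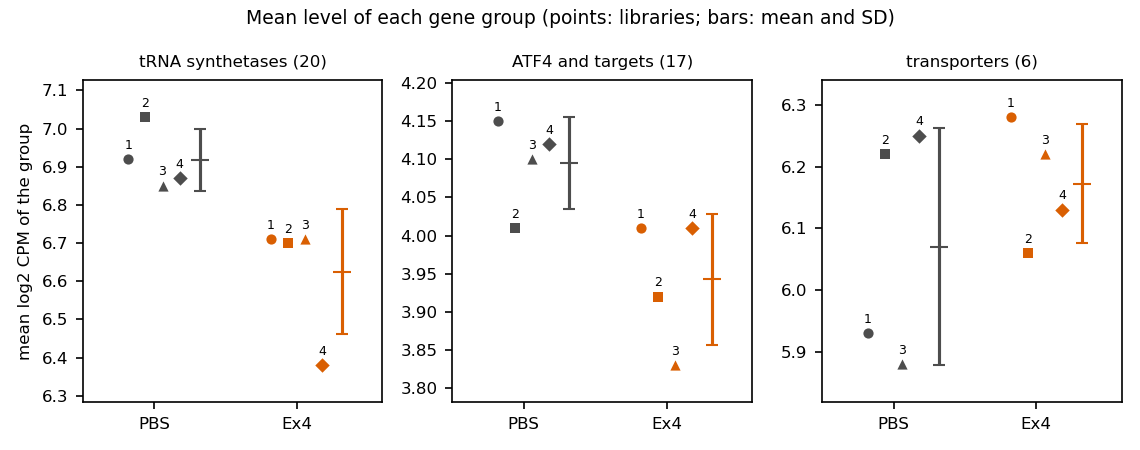
Mean log2 CPM of the 20 synthetases, of ATF4 and its targets (17) and of the transporters (6) in each library (points, numbered by replicate), with the mean and SD of each group of 4. The synthetase means of the Ex4 libraries (6.38 to 6.71) lie below those of the PBS libraries (6.85 to 7.03), while the transporter means overlap.

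Atf4 was at 136.9, 198.8, 201.6 and 245.5 CPM in PBS 1 to 4 and at 182.2, 182.1, 215.8 and 209.5 CPM in Ex4 1 to 4. The Ex4 libraries lay inside the range of the PBS libraries, and the means, 195.7 ± 44.7 and 197.4 ± 17.8 CPM, were almost equal (log2 fold change 0.01, SE 0.16). The gene lies on chromosome 15 from 80255184 to 80257545. Ddit3, which encodes the stress factor CHOP, was at 41.4, 53.8, 42.5 and 60.5 CPM with PBS and 47.1, 52.9, 43.3 and 46.9 CPM with Ex4. Its groups overlapped fully (-0.06, SE 0.15). Atf5, a relative of ATF4 that is also set by translation, was near the limit of detection, at 1.52 ± 0.380 and 1.20 ± 0.691 CPM. It overlaps Nup62 over 571 bases, a gene at 93.3 CPM with PBS and 70.9 CPM with Ex4.

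Asns, the asparagine synthetase gene and a classic ATF4 target, had the highest log2 fold change of the ATF4 group, in which 5 of 17 lay above 0. It was at 6.98, 27.9, 20.1 and 27.7 CPM in PBS 1 to 4 and at 41.1, 22.4, 37.9 and 29.9 CPM in Ex4 1 to 4. PBS 1 was the lowest by a wide margin, and Ex4 2 lay inside the PBS range, so the groups overlapped. Its log2 fold change of 0.67 (SE 0.37, edgeR adjusted p = 0.719) was 0.37 without PBS 1. Asns lies on chromosome 6 from 7675165 to 7693209.

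The serine, glycine and one-carbon enzymes among the 17 were Shmt2, Mthfd2, Phgdh, Psat1 and Psph, and each had a lower mean with exendin-4. Shmt1 and Cbs, which also use serine and belong to the further response genes, had higher means, with log2 fold changes of 0.20 (SE 0.18) and 0.41 (SE 0.74). Cbs was scarce, at means of 0.63 CPM with PBS and 0.85 CPM with Ex4. From the same list Mthfd1 (-0.25, SE 0.18), Mthfd1l (-0.22, SE 0.15) and Cth (-0.15, SE 0.84) had lower means. None of these further genes passed the test. Shmt2, the mitochondrial enzyme that turns serine into glycine, was at 155.3, 136.1, 134.5 and 142.3 CPM with PBS and 130.9, 112.6, 95.5 and 101.3 CPM with Ex4. All Ex4 libraries lay below all PBS libraries (log2 fold change -0.37, SE 0.13, edgeR adjusted p = 0.51). Mthfd2, the next enzyme of the mitochondrial folate pathway, was at 70.5, 74.0, 79.5 and 77.4 CPM and at 69.1, 60.5, 64.8 and 60.0 CPM. Ex4 1 and PBS 1 nearly met, and the log2 fold change was -0.24 (SE 0.12). These were the only members of the ATF4 group whose libraries were apart, 2 of 17.

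The serine pathway itself, Phgdh, Psat1 and Psph, which turn a glycolytic intermediate into serine, had log2 fold changes of -0.25, -0.13 and -0.26. Psph was at 35.1, 31.2, 42.3 and 38.4 CPM with PBS and 30.9, 33.3, 26.1 and 32.6 CPM with Ex4, and PBS 2 and Ex4 2 crossed. Psat1 ranged from 33.2 CPM in Ex4 4 to 71.8 CPM in PBS 1, and its log2 fold change was 0.02 without Ex4 4. Aldh18a1, which starts proline synthesis, was at 128.9, 156.5, 130.0 and 149.9 CPM with PBS and 150.2, 116.3, 108.0 and 97.7 CPM with Ex4. Ex4 1 lay among the PBS libraries and the other Ex4 libraries below them (-0.26, SE 0.15). Pycr1, a later step to proline, was scarce, at 2.695 ± 0.876 and 3.17 ± 1.30 CPM.

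Eif4ebp1, whose product holds back cap-dependent translation, was at 36.0, 20.3, 28.0 and 34.8 CPM with PBS and 14.1, 28.2, 27.7 and 17.1 CPM with Ex4. The groups overlapped (log2 fold change -0.45, SE 0.25). The remaining regulators were below 10 CPM in every library. Trib3, a pseudokinase that dampens ATF4, was at 5.20 ± 1.42 and 4.03 ± 2.34 CPM, Ddit4, an inhibitor of mTORC1, at 2.67 ± 0.982 and 1.91 ± 1.14 CPM, and Sesn2, a leucine sensor, at 3.06 ± 1.00 and 2.69 ± 1.46 CPM. Nupr1, a stress-induced chromatin protein gene, was at 5.24 ± 1.55 and 5.61 ± 1.90 CPM. Chac1, which degrades glutathione, was at 1.30, 1.245, 1.99 and 0.281 CPM with PBS and 1.20, 1.20, 0.655 and 1.84 CPM with Ex4, from 5 to 40 counts a library. At this depth no difference in these scarce genes was detectable, with SEs from 0.35 for Nupr1 to 0.66 for Chac1.

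The median of the ATF4 group rested in part on single libraries. It was -0.24 with all libraries, -0.15 without PBS 1 and between -0.27 and -0.17 with any other single library left out. Ex4 3 and Ex4 4 each held the lowest value of the 8 libraries for 5 of the 17 genes, and PBS 1 held the highest for 5 and the lowest for 3.

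**Figure D4:**
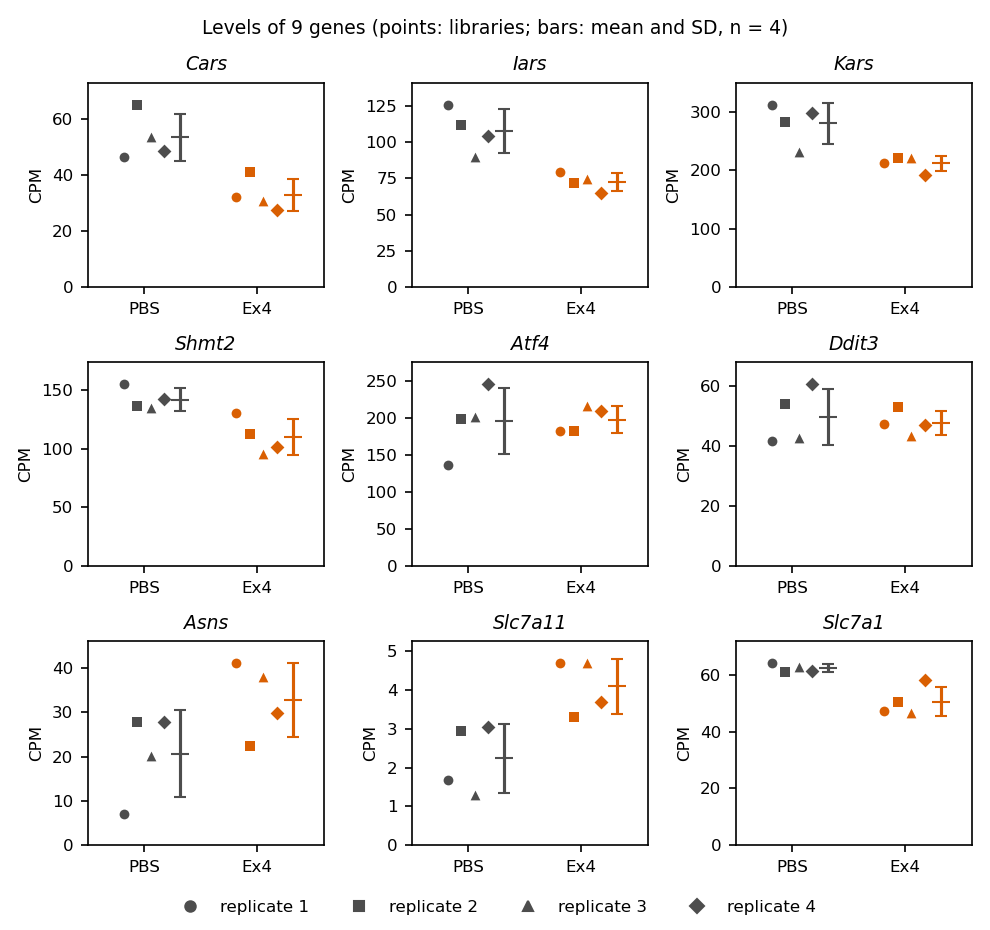
CPM in each library for 3 synthetases (Cars, Iars, Kars), for Shmt2, Atf4, Ddit3 and Asns of the ATF4 group and for the transporters Slc7a11 and Slc7a1 (points, shaped by replicate), with the mean and SD of 4 libraries; each axis starts at 0. Cars, Iars, Kars, Shmt2 and Slc7a1 have all Ex4 points below the PBS points, Slc7a11 has them above, and Atf4, Ddit3 and Asns overlap.

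The transporters went both ways. Slc7a1, which carries arginine and lysine into the cell, was at 64.1, 61.1, 62.8 and 61.2 CPM in PBS 1 to 4 and at 47.3, 50.6, 46.4 and 58.0 CPM in Ex4 1 to 4. All Ex4 libraries lay below a very tight PBS group, with Ex4 4 nearest to it (log2 fold change -0.30, SE 0.13, edgeR adjusted p = 0.582). In contrast to the synthetases, Ex4 4 was here the highest of its group. Slc7a11, the cystine and glutamate exchanger, was at 1.68, 2.95, 1.29 and 3.04 CPM with PBS and 4.70, 3.31, 4.69 and 3.68 CPM with Ex4. All Ex4 libraries were above all PBS libraries, and this was 1 of the 6 transporters and the only member apart upward (0.87, SE 0.41, edgeR adjusted p = 0.658). The gene had only 26 to 136 counts a library. Slc7a1 lies on chromosome 5 from 148327410 to 148399904 and Slc7a11 on chromosome 3 from 50364936 to 50499087.

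Slc1a5, which imports glutamine, was at 352.1, 389.9, 315.2 and 346.1 CPM with PBS and 376.8, 274.1, 312.1 and 228.2 CPM with Ex4. Ex4 1 lay within the PBS range and the other Ex4 libraries below it (log2 fold change -0.24, SE 0.15). Slc7a5, the large neutral amino acid transporter that supplies leucine, was at 43.7, 40.4, 37.5 and 51.9 CPM and at 50.5, 36.3, 38.5 and 42.8 CPM, with no separation (-0.05, SE 0.15). Slc3a2, the heavy chain that pairs with the products of Slc7a5 and Slc7a11, was at 334.7 ± 85.4 and 385.1 ± 24.02 CPM, and its log2 fold change of 0.20 was 0.05 without PBS 1, its lowest library. Slc38a2, a sodium-coupled carrier of small neutral amino acids, was at 135.8 ± 9.52 and 142.7 ± 19.2 CPM. Per kilobase of merged exons, Slc3a2 (94.8 CPM with PBS), Slc1a5 (84.1) and Atf4 (83.0) had the highest values of the 43 genes, and Slc7a11 (0.161) the lowest. These ranks too depend on the annotated exons. By PBS CPM alone Eprs (425.0) was the highest and Chac1 (1.20) the lowest.

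Other genes of the pathway gave no call in edgeR. Of 14 genes of the eIF2 kinases, their partners and eIF2B, 8 lay below 0 (median -0.05), and the amino acid sensor gene Eif2ak4, which encodes GCN2, was at 16.1 CPM with PBS and 16.6 CPM with Ex4. Eif2b4 (-0.21) and Eif2b3 (-0.20), subunits of the exchange factor of eIF2, had the smallest p in that list. Of 18 tested further response genes, Nars2 among them again, 12 lay below 0 (median -0.12). Among them Xpot, which exports tRNA from the nucleus, was at 64.4, 51.2, 55.4 and 56.8 CPM with PBS and 43.8, 47.2, 42.8 and 36.9 CPM with Ex4. All its Ex4 libraries lay below PBS (log2 fold change -0.42, edgeR adjusted p = 0.441).

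Of 10 other amino acid transporters 2 lay below 0 (median 0.17). One of these was Slc7a6, a partner of Slc3a2 for cationic amino acids, at 97.7 CPM with PBS and 78.6 CPM with Ex4 and with all Ex4 libraries below PBS (-0.31). Slc38a9, the lysosomal arginine sensor, had 0.26. In the amino acid sensing list of mTORC1 8 of 15 tested genes lay below 0 (median -0.03), with Flcn at -0.40 and Castor2 at 0.76. Across these 4 lists the lowest edgeR adjusted p was 0.441, that of Xpot. At an unadjusted p under 0.05 there were 0, 3, 1 and 2 genes in the order given, of which 0, 2, 1 and 1 were lower.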

How the data were processed

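Gene counts of 8 mice were analysed, 4 per group, grouped and numbered by their titles. For each gene symbol the deposited table of the authors gives a whole-number count, not normalised. RNA was taken up in TRIzol and libraries were made with a stranded TruSeq mRNA kit, per the labels' protocols. STAR 2.7.9a, DESeq2 and mm10 are named without role per the submitters' processing notes. How reads were counted, on which annotation and by which strand, was not given in the sources used here. Each of the 8 columns was tied to its mouse through the description label, which left 0 per-sample columns unused. Of 25230 symbols, 21452 had a count.

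The main test was the quasi-likelihood F test of edgeR 4.0.16 in R 4.3.3, after filterByExpr and TMM scaling and with robust dispersion estimates, with Benjamini-Hochberg adjustment over 14691 genes. SEs came from the fold change and its F statistic. CPM used the TMM-scaled totals, and log2 CPM a prior count of 2. The replicates of a group all differed by more than sampling noise (mean chi-square per gene from 22.1 to 82.7). The pairs of PBS 1 with PBS 2, 3 and 4 were the highest, from 61.9 to 82.7, and the other pairs ran from 22.1 to 47.7. Total counts of 13386889 to 31843413 set the precision of scarce genes. The test was checked on simulated counts, in which the changed genes had larger fold changes than the synthetase median. That check does not describe its power at smaller differences. Exon lengths were unions of GENCODE M21 exons, and coordinates came from RefSeq on GRCm38.p6, where 43 of 43 members matched. Promoter windows were read in gene direction: the bases after the start stood in GENCODE transcripts of the same gene for 31 of 36 windows. The matched sequence of 1 gene is not reported here.

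Values were given library by library for the 6 synthetases, 6 ATF4-group genes and 3 transporters of smallest unadjusted p, and for Atf4, Ddit3, Asns, Chac1, Slc7a5 and Slc7a11. Members and lists were chosen with earlier results of these data known, so no set test and no p over the members was computed. Of the list genes, 1 (Samtor) had no row, and Vldlr and Stc2 were too low to test. Alternatives were DESeq2 1.42.0, limma-voom (limma 3.58.1), other scaling and filters, each library left out, a block for the replicate number, a term for the run of label numbers, the epithelial marker mean and omission of the 10 most abundant genes. Omission of both PBS 2 and Ex4 3 and 2 counts of synthetases were added after the data were seen. Figures used matplotlib 3.10.9.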

Additional observations from a re-analysis of the deposited data

Results flagged for a closer look

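For the 43 genes and the 3 gene-group means, the distance of the outermost library from its neighbour was divided by the range of the 4 libraries of its treatment, on the log2 CPM scale. Of 92 sets of 4 libraries, 6 exceeded Dixon's 95% critical value, which about 1 in 20 would by chance.

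Ex4 4 was low in the mean of the synthetases, at 6.38 against 6.70 for the nearest Ex4 library (ratio 0.984). It was also low in Yars, at 6.16 against 6.53 (ratio 0.903), and PBS 4 was low in Yars, at 6.63 against 6.86 (ratio 0.928). PBS 1 was high in Nars, at 8.34 against 8.20 (ratio 0.847), and in Ddit4, at 2.08 against 1.26 (ratio 0.854). PBS 2 was high in Qars, at 6.70 against 6.21 (ratio 0.876). The cause was not tested for any of these.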

How the results depend on the processing

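Omission of both PBS 2 and Ex4 3 was chosen after the data were seen. The synthetase median (-0.29) lay between -0.35 and -0.22 over all alternatives, with 18 to 20 of 20 genes below 0. With all 8 libraries 8 to 10 of the 20 were apart downward, beside 2.66% of all genes tested in the main fit. With libraries left out 9 to 13 were apart downward. Fewer values then have to separate, and the share of all genes was not computed there. The median of all genes moved by less than 0.1 under every setting. DESeq2 called 83 genes, 48 higher and 35 lower, among them 2 members, Cars and Iars; edgeR with no filter called 8. limma-voom, the label-number term, the epithelial covariate and the replicate block each called 1. The labels do not say whether equal replicate numbers mark pairs of mice. Same-numbered libraries had correlations from -0.24 to 0.14 after removal of group means, and differently numbered ones from -0.34 to 0.36. So few values cannot decide whether the libraries are paired. The block called 0 members. With single libraries left out edgeR called 1 to 14 genes, 14 without PBS 2 and 1 without any other. The median of the ATF4 group ran from -0.27 to -0.15. That of the transporters, near 0, changed sign with several settings within the replicate spread.

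Members near 0 changed sign, and the cause was not tested. Qars was 0.013 with limma-voom and the block, 0.014 with a minimum mean of 5 CPM and 0.018 with upper-quartile factors. Atf4 and Chac1 were -0.007 and -0.008 with no filter, and Chac1 was -0.001 with DESeq2 and -0.002 without the 10 most abundant genes. Gars and Nupr1 were -0.004 and -0.03 with the epithelial covariate, and Nupr1 and Slc7a5 -0.213 and 0.003 with the label-number term. Without both PBS 2 and Ex4 3 the values were 0.146 for Qars, -0.035 for Atf4, 0.014 for Ddit3, -0.248 for Pycr1, -0.136 for Nupr1 and -0.028 for Slc38a2. With single libraries left out, Gars ran from -0.032 to 0.18, Qars from -0.082 to 0.133, Atf4 from -0.135 to 0.122, Ddit3 from -0.16 to 0.03, Chac1 from -0.329 to 0.321 and Sesn2 from -0.644 to 0.025. Psat1 ran from -0.281 to 0.018, Pycr1 from -0.063 to 0.431, Nupr1 from -0.166 to 0.297, Slc7a5 from -0.16 to 0.03 and Slc38a2 from -0.032 to 0.133. Depth limits the members at a few CPM, above all in Ex4 4.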
